A study of Mus musculus with 6 samples.

Results

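Chemokine receptors of myeloid cells and lymphocytes were examined in CD11B+ cells taken from the kidneys of mice with acute kidney injury. The 9 genes were chosen by symbol (Ccr1, Ccr2, Ccr3, Ccrl2, Cx3cr1, Cxcr2, Cxcr3, Cxcr4 and Cmklr1), and all 9 were found among the 46603 genes of the count table. Both genotypes carried Rosa26-LSL-RARaT403X, a Cre-activated allele of a truncated retinoic acid receptor that acts as a dominant negative on RARa, RARb and RARg. PTEC DN RAR mice were also PEPCK CRE+, which switches the allele on in proximal tubular epithelial cells (PTECs), and Cre- control mice were PEPCK CRE-, so the allele stayed silent. All were male and 10 to 12 weeks old, had both renal pedicles clamped for 28 minutes (ischemia-reperfusion injury, IRI-AKI), and gave kidney cells 3 days later, which were pulled out with magnetic beads coated with CD11B antibody. RNA from 3 mice of each genotype was sequenced, 1 library a mouse. No uninjured mice, other day or Cre+ mice without the allele were analysed here, so an effect of PEPCK-Cre itself and an effect of the dominant negative receptor cannot be told apart, and PEPCK is a liver enzyme as well as a proximal tubular one.

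Chemokine receptors are G protein-coupled receptors that steer leukocytes along gradients of chemokines. After ischemic injury the kidney draws neutrophils and then CCR2+ monocytes from blood, while macrophages that live in the kidney carry CX3CR1. Ligand binding activates inhibitory G proteins, after which receptor kinases and arrestins silence and internalise the receptor. CCRL2 is atypical: it binds chemerin without coupling to G proteins and presents it to cells that carry CMKLR1, the signalling receptor for chemerin.

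The libraries held between 29318041 and 46517005 gene counts. Expression is given in CPM, read counts scaled to a common library size after trimmed mean of M values (TMM) normalization; before that normalization, 3 counts equal 0.0645 to 0.102 CPM. The 2 genotypes were compared with the quasi-likelihood test of edgeR over 15440 genes with enough counts, and a gene was called at a Benjamini-Hochberg adjusted p below 0.05. Itgam, which encodes CD11B itself, was at 1737, 1959 and 1995 CPM in Cre- control mice and at 1366, 1303 and 980.3 CPM in PTEC DN RAR mice (log2 fold change -0.64 ± 0.14 (SE), adjusted p = 0.00818). The pan-leukocyte gene Ptprc (CD45) differed by -0.11 ± 0.13 on the log2 scale (adjusted p = 0.534). Transcripts of kidney parenchyma moved with genotype: all 8 proximal tubule markers and all 7 endothelial markers were higher in PTEC DN RAR libraries, against 23.6% of all genes tested. The summed proximal tubule markers ranged from 489.7 to 660.4 CPM in controls and from 1627 to 2393 CPM in PTEC DN RAR mice. The part of these transcripts in the results below was not tested. In bulk RNA, fewer cells of a type and less RNA per cell cannot be told apart. Genotype labels were not checked against the counts.

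Of the 9 receptors, 6 were lower in PTEC DN RAR libraries (Ccr1, Ccr2, Ccrl2, Cxcr2, Cxcr4 and Cmklr1), 0 were higher and 3 were not called (Ccr3, Cx3cr1 and Cxcr3). Over all genes tested, 17.1% were called lower, 23.6% were called higher and 40.6% were called in either direction. All 9 receptors passed the filter on low counts, and their median log2 fold change was -0.69, against 0.04 for all genes tested. In 7 of the 9, the highest PTEC DN RAR value lay below the lowest control value, which held for 24.2% of all genes tested; the opposite separation held for 0 of the 9 and for 29.2% of all genes tested. Scaling the libraries on 24 pan-leukocyte genes in place of TMM raised the median of all genes to 0.23 and lowered the share of calls that were lower from 42% to 14.3%. Under that scaling Ccr1, Ccr2, Ccrl2 and Cxcr2 were still called lower, Cxcr4 and Cmklr1 were not called, and Cx3cr1 and Cxcr3 were called higher.

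**Figure D1:**
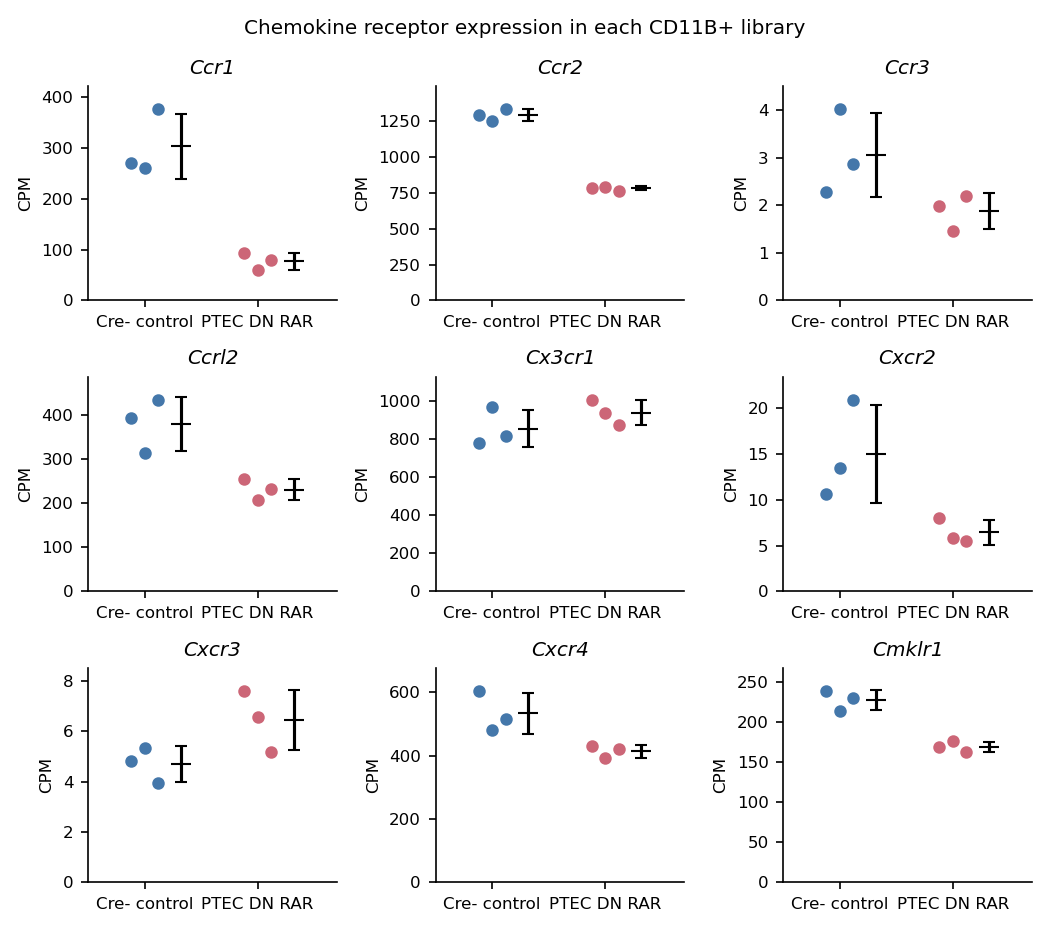
Expression of the 9 chemokine receptors in CPM (vertical axes, each from 0) in 3 Cre- control and 3 PTEC DN RAR libraries. Each point is 1 mouse, and the bars beside the points give the mean ± SD. Points of the genotypes do not overlap for Ccr1, Ccr2, Ccr3, Ccrl2, Cxcr2, Cxcr4 and Cmklr1, and overlap for Cx3cr1 and Cxcr3.

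Ccr1 and Ccr2, receptors for inflammatory CC chemokines on blood-derived monocytes, both fell, Ccr1 by more. Ccr1 was at 270.3, 261 and 376 CPM in the control libraries and at 93.1, 59.3 and 78.9 CPM in those of PTEC DN RAR mice. The highest PTEC DN RAR library was thus far below the lowest control. Mean expression went from 302 ± 63.7 CPM (SD, n = 3) to 77.1 ± 17.0 CPM, 3.92-fold lower (log2 fold change -1.97 ± 0.19 (SE), 95% confidence interval -2.41 to -1.53, adjusted p = 0.000306 by edgeR). Ccr2, which monocytes need to leave bone marrow and which responds to CCL2, CCL7 and CCL12, was at 1292, 1249 and 1334 CPM in controls and at 786, 791 and 764 CPM in PTEC DN RAR mice. The libraries of each genotype lay close together, with means of 1291 ± 42.5 and 781 ± 14.3 CPM. Ccr2 was 1.65-fold lower (log2 fold change -0.73 ± 0.09, 95% confidence interval -0.93 to -0.52, adjusted p = 0.000691 by edgeR).

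Ccr1 and Ccr2 lie in the chemokine receptor cluster on mouse chromosome 9, Ccr1 at chr9:123962124-123968692 on the minus strand and Ccr2 at chr9:124101950-124113557 on the plus strand (GRCm38). Their promoters, 250 bases up to the RefSeq start (GRCm38.p6), are shown because these 2 of the 9 receptors had the smallest adjusted p.
Ccr1 promoter, chr9:123968693-123968942, minus strand: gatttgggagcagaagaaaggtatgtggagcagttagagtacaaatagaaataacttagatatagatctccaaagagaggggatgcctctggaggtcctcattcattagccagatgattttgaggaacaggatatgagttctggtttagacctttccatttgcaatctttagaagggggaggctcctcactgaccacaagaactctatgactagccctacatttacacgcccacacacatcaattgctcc
Ccr2 promoter, chr9:124101933-124102182, plus strand: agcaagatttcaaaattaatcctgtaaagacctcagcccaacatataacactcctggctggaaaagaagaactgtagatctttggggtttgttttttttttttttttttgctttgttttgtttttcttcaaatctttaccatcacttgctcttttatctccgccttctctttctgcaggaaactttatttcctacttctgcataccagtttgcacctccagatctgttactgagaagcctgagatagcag
Each window held 1 CpG, against a median of 6 (quartiles 2 and 16) in all 32851 promoter windows of this length. Both strands were searched for 3 sequences picked after the promoters had been seen: the PU.1 core AGGAAGT (in 7.69% of all windows), a STAT site TTCNNNGAA (7.02%) and the TATA box TATAAA (12.4%). These letters were not in either window.

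The monocyte marker list, with Chil3, Plac8, F13a1 and Fn1 among its genes, moved with both receptors. Of its 8 genes, 6 were lower and 0 were higher, against 17.1% lower and 23.6% higher over all genes tested. Its summed level ranged from 2576 to 2913 CPM in controls and from 877 to 936 CPM in PTEC DN RAR mice. F13a1, a coagulation factor subunit made by monocytes, fell most of the list, from 606 ± 107 to 119 ± 16.1 CPM (log2 fold change -2.35 ± 0.15, adjusted p = 0.000134 by edgeR). Ly6c2 (log2 difference -0.90, adjusted p = 0.0824 by edgeR, libraries overlapping) and Hp (-0.27, adjusted p = 0.149) were not called. To set each receptor against its cells, the mean log2 CPM of the list was subtracted from that of the receptor in each library, which removes library scaling. Ccr2 minus monocyte markers took values of 3.05, 2.97 and 3.14 in control libraries against 3.73, 3.53 and 3.28 for PTEC DN RAR, a log2 difference of 0.46 without overlap. Ccr1 minus monocyte markers took values of 0.80, 0.71 and 1.31 in control libraries against 0.65, -0.21 and 0.01 for PTEC DN RAR, a log2 difference of -0.79, again without overlap. By this mean, Ccr2 was higher, and Ccr1 lower, in relation to the same marker list. Each had an exact two-sided permutation p = 0.1, the smallest that 3 against 3 libraries allow, and an adjusted p = 0.175 over the 7 pairs of receptor and list. With the median of the markers in place of their mean, the difference was 0.15 for Ccr2 (exact permutation p = 0.3) and -1.10 for Ccr1 (exact permutation p = 0.1).

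**Figure D2:**
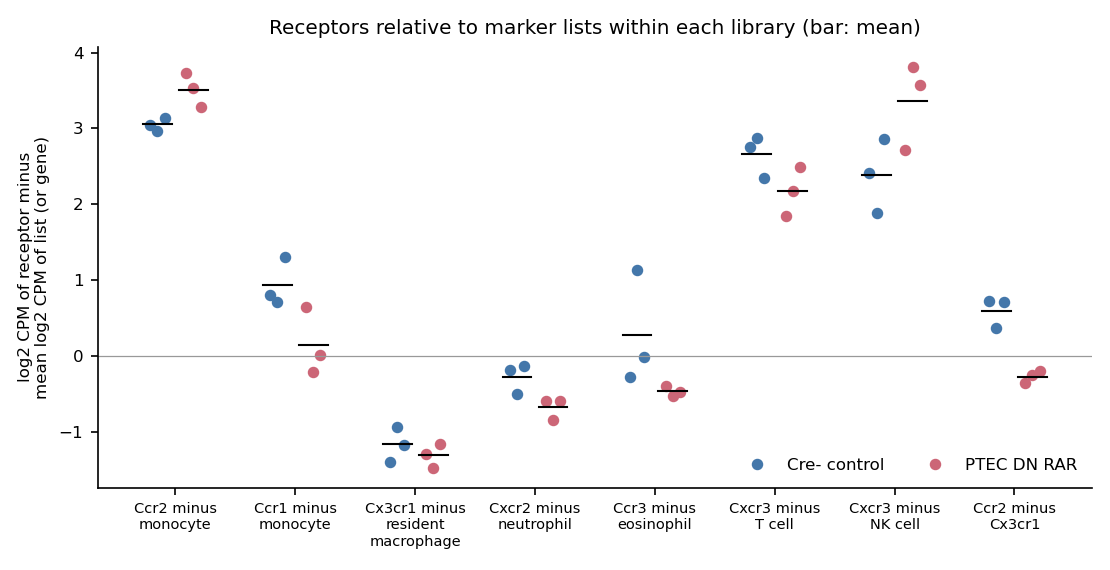
Log2 CPM of a receptor minus the mean log2 CPM of a cell type marker list (vertical axis, log2) for 7 pairs of receptor and list, and log2 CPM of Ccr2 minus that of Cx3cr1 at the right; short lines are means, and each point is 1 mouse, 3 per genotype. The PTEC DN RAR points lie above the controls for Ccr2 and monocytes, below them for Ccr1 and monocytes, Cxcr2 and neutrophils, and Ccr3 and eosinophils, and Ccr2 minus Cx3cr1, and overlap with them for the other pairs.

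Cx3cr1, the fractalkine receptor of resident macrophages and patrolling monocytes, did not change detectably. It was at 783, 969 and 817 CPM in controls and at 1007, 941 and 875 CPM in PTEC DN RAR mice, and the genotypes overlapped. The means were 857 ± 99.1 and 941 ± 65.5 CPM, with a log2 difference of 0.14 ± 0.11 (95% confidence interval -0.12 to 0.39, adjusted p = 0.368 by edgeR). With pan-leukocyte scaling the log2 difference was 0.32 (adjusted p = 0.0411). Of the 8 resident macrophage markers, 1 was lower and 2 were higher, near the shares over all genes tested (17.1% lower and 23.6% higher). Their summed level ranged from 25097 to 30518 CPM in controls and from 32607 to 45717 CPM in PTEC DN RAR mice. Cd74, the MHC class II invariant chain that dendritic and B cells also make, went from 9817 ± 1540.1 to 19599 ± 4114 CPM, and without it the sums overlapped (14806 to 19934 and 17074 to 21958 CPM, an alternative chosen after seeing the data). Cx3cr1 minus these markers averaged -1.16 ± 0.23 for controls against -1.31 ± 0.15 for PTEC DN RAR, and the libraries overlapped (log2 difference -0.14, exact permutation p = 0.5). Cx3cr1 spans chr9:119901616-120069879 on the minus strand, and 78 of its exon bases, or 1.7%, are shared with the antisense gene Gm33858. Whether the counting used strand is not given in the sources used here, so reads from these bases cannot be assigned.

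Ccr2 was also set against Cx3cr1 within each library. Log2 CPM of Ccr2 minus that of Cx3cr1 came to 0.72, 0.37 and 0.71 in control libraries and to -0.36, -0.25 and -0.20 for PTEC DN RAR. All 3 PTEC DN RAR values were lower than all 3 control values. These values are not corrected for length, so their sign gives no order of the 2 genes. The mean went from 0.60 ± 0.20 to -0.27 ± 0.08, a log2 difference of -0.87 that does not depend on library scaling (exact permutation p = 0.1, the smallest possible). Left without any 1 library, the difference ranged from -0.98 to -0.80.

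Ccrl2 and Cmklr1, the presenting and the signalling receptor for chemerin, were both lower. Ccrl2, at chr9:111054486-111057519 on the minus strand, was at 394, 314 and 435 CPM in controls and at 255, 207 and 232 CPM in PTEC DN RAR mice, 1.65-fold lower (log2 fold change -0.72 ± 0.14, 95% confidence interval -1.03 to -0.41, adjusted p = 0.00404 by edgeR). Every PTEC DN RAR library was below the lowest control. Cmklr1, at chr5:113612354-113650426 on the minus strand, was at 239, 214 and 230.1 CPM in controls and at 169, 176 and 163 CPM in PTEC DN RAR mice, 1.34-fold lower (log2 fold change -0.42 ± 0.08, 95% confidence interval -0.61 to -0.24, adjusted p = 0.00468 by edgeR). The gap between the genotypes was wider than the spread within either, but with pan-leukocyte scaling the log2 fold change was -0.23 (adjusted p = 0.0919). Chemerin itself (Rarres2) went the other way, from 1.24 ± 0.432 to 9.26 ± 1.11 CPM (log2 fold change 2.88, adjusted p = 0.000208 by edgeR). Chemerin is made by epithelium and stroma rather than by macrophages. The stromal markers were higher in PTEC DN RAR libraries too (4 of 4 genes, against 23.6% of all genes tested). Their summed levels ran from 18.6 to 26 CPM in controls and from 26.4 to 67.4 CPM in PTEC DN RAR mice. The part of epithelium and stroma in the rise of Rarres2 was not tested.

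Cxcr4, the receptor for CXCL12 that holds leukocytes in bone marrow and is carried by most of them, fell slightly. It was at 604, 479.6 and 516 CPM in controls and at 429, 391 and 421 CPM in PTEC DN RAR mice. The genotypes did not overlap, but the lowest control and the highest PTEC DN RAR library were close. The means were 533 ± 63.9 and 414 ± 20.2 CPM, a 1.29-fold difference (log2 fold change -0.37 ± 0.11, 95% confidence interval -0.61 to -0.12, adjusted p = 0.0254 by edgeR). Of the 6 calls it was the one lost most often, in 4 of 14 alternatives: with pan-leukocyte scaling (log2 fold change -0.17, adjusted p = 0.281), without Cre- control replicate 1 (-0.27, adjusted p = 0.0524), without PTEC DN RAR replicate 1 (-0.40, adjusted p = 0.0517) and without PTEC DN RAR replicate 2 (-0.33, adjusted p = 0.0822). Cxcr4 lies at chr1:128588199-128592293 on the minus strand. Its promoter is shown because it differed most from those of the other receptors, with 19 CpGs and 61.2% GC in 250 bases; capitals mark TATAAA, found on both strands from 32 bases before the start.
Cxcr4 promoter, chr1:128592300-128592549, minus strand: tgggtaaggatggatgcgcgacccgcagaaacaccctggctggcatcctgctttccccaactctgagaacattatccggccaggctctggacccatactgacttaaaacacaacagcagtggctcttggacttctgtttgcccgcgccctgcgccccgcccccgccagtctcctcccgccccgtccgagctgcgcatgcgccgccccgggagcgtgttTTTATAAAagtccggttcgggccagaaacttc

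Receptors of granulocytes were less abundant. Cxcr2, the receptor through which neutrophils follow CXCL1 and CXCL2, was at 10.6, 13.5 and 20.9 CPM in controls and at 8.03, 5.87 and 5.51 CPM in PTEC DN RAR mice. All PTEC DN RAR libraries were below the lowest control, and the controls spread widely (15.0 ± 5.36 CPM, against 6.47 ± 1.36 CPM). Cxcr2 was 2.31-fold lower (log2 fold change -1.21 ± 0.26, 95% confidence interval -1.80 to -0.62, adjusted p = 0.00708 by edgeR). Of the 50-base stretches of its exons, 6.68% also occur in other genes, so a small share of its reads could have been discarded as multi-mapped. Among 9 neutrophil markers, 4 were lower and 0 higher, against 17.1% lower and 23.6% higher over all genes tested. Their summed level ranged from 460.0 to 829 CPM in controls and from 293 to 418 CPM in PTEC DN RAR mice. S100a8, a neutrophil calcium-binding protein, went from 142 ± 50.8 to 56.7 ± 18.4 CPM (log2 fold change -1.32 ± 0.29, adjusted p = 0.00805 by edgeR). The other 5 markers were not called: Csf3r, Camp, Ltf, Ngp and Ly6g differed by -0.14, -0.12, -0.32, -0.33 and -1.45 on the log2 scale. Cxcr2 minus neutrophil markers averaged -0.28 ± 0.20 for controls against -0.67 ± 0.14 for PTEC DN RAR (log2 difference -0.40, exact permutation p = 0.1), but -0.07 with the median of the markers (exact permutation p = 0.8).

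Ccr3, the eotaxin receptor of eosinophils, was at 2.28, 4.03 and 2.88 CPM in controls (89, 120 and 91 counts) and at 1.98, 1.46 and 2.2 CPM in PTEC DN RAR mice (83, 62 and 104 counts). Although the genotypes did not overlap, the difference was not called (log2 difference -0.69 ± 0.27, 95% confidence interval -1.32 to -0.07, adjusted p = 0.0716 by edgeR). It was called by DESeq2 (log2 difference -0.73, adjusted p = 0.042) and without Cre- control replicate 1 (-0.88, adjusted p = 0.0356). The eosinophil granule gene Epx, a peroxidase, reached at most 0.0848 CPM in any library, and Prg2 at most 0.215 CPM. Siglecf, a surface lectin of eosinophils and some macrophages, was at 8.79 ± 2.25 and 7.11 ± 3.92 CPM. Neither of the 2 eosinophil markers tested (Siglecf and Il5ra) was called. Ccr3 minus these markers averaged 0.28 ± 0.74 for controls against -0.46 ± 0.07 for PTEC DN RAR (log2 difference -0.75, exact permutation p = 0.1), and the difference was -0.32 without Cre- control replicate 2, the library with the most Ccr3.

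Cxcr3, the receptor of activated T and NK cells for the interferon-induced chemokines CXCL9, CXCL10 and CXCL11, had the only other positive difference besides Cx3cr1. It was at 4.82, 5.33 and 3.93 CPM in controls and at 7.6, 6.55 and 5.19 CPM in PTEC DN RAR mice. The lowest PTEC DN RAR library lay below the highest control. The log2 difference was 0.46 ± 0.20 (95% confidence interval 0.01 to 0.90, adjusted p = 0.0924 by edgeR), and with pan-leukocyte scaling it was 0.64 (adjusted p = 0.0246). T cell receptor genes were scarce: Cd3e was at 0.174 ± 0.0665 and 0.457 ± 0.363 CPM, and Cd3g did not exceed 1.0 CPM. Of 6 T cell markers tested, 2 were higher (Cd4, also made by macrophages, and Trac, which passed the filter on low counts only through the PTEC DN RAR libraries), and of 4 NK cell markers tested, 0 were called. Over all genes tested, 17.1% were lower and 23.6% higher. Relative to T cell markers the Cxcr3 difference was -0.49 on the log2 scale, and relative to NK cell markers it was 0.98 (exact permutation p = 0.2 each), with overlapping libraries in both. With the median of the markers the difference from T cell markers was -0.82 (exact permutation p = 0.1) and that from NK cell markers 0.68 (exact permutation p = 0.2). Because the T cell list holds Trac, the filter itself raises it in PTEC DN RAR libraries. The differences from T cell markers are therefore no support for a lower Cxcr3 relative to T cells. Cxcr3 lies at chrX:101731535-101734269 on the minus strand. Its promoter is shown because it alone of the 9 receptors' windows held the PU.1 core, at 230 and at 16 bases before the start, in capitals as read on the other strand.
Cxcr3 promoter, chrX:101734148-101734397, minus strand: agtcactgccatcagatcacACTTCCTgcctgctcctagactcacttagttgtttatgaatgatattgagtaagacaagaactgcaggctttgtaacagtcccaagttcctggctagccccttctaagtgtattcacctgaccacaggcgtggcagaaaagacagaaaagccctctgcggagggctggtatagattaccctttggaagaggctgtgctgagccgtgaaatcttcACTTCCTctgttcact

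Between genes, levels were compared per length, as CPM per kilobase (kb) of exon. In controls Cxcr4 was highest at 295 ± 35.4 CPM per kb (SD, n = 3), followed by Ccr2 at 191 ± 6.29 and Cx3cr1 at 190.1 ± 22.0, whose libraries overlapped. Ccrl2 (147 ± 23.7) and Ccr1 (107 ± 22.5) came next and overlapped too, and then Cmklr1 at 66.7 ± 3.74. Cxcr2 (4.92 ± 1.76), Cxcr3 (2.71 ± 0.411) and Ccr3 (0.936 ± 0.271) were far lower. In PTEC DN RAR mice Cxcr4 stayed highest at 229 ± 11.2 CPM per kb and Cx3cr1 followed at 209 ± 14.5, and these overlapped, while Ccr2 was at 115 ± 2.11 and Ccrl2 at 89.1 ± 9.37. Ccr1 dropped below Cmklr1 (27.2 ± 5.99 against 49.7 ± 1.82), and Cxcr2 below Cxcr3 (2.12 ± 0.447 against 3.72 ± 0.697), with no overlap in either pair. Of the summed level of the 9 receptors per length, Cx3cr1 took 17.0 to 22.7% in control libraries and 27.3 to 29.8% in PTEC DN RAR libraries. Ccr1 took 9.33 to 12.7% and 2.99 to 4.29%, respectively.

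**Figure D3:**
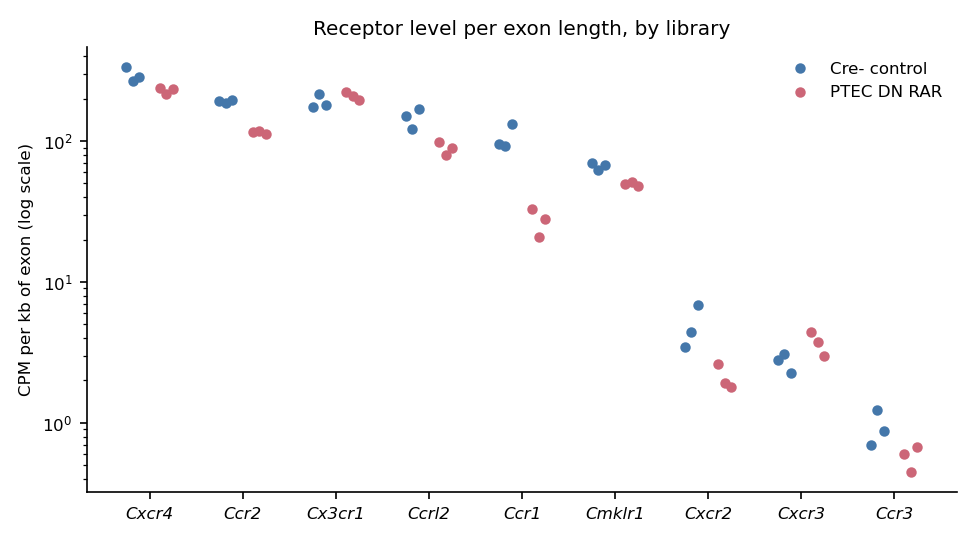
Level of the 9 chemokine receptors in CPM per kb of exon, on a log axis, in 3 Cre- control and 3 PTEC DN RAR libraries (1 point a mouse). Cxcr4 has the highest mean in both genotypes, and Cxcr2, Cxcr3 and Ccr3 lie below 10 CPM per kb in every library.

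The rest of the receptor family was measured in the same fit. Of 16 other chemokine receptors, 8 had enough counts, of which 2 were lower, 2 were higher and 4 were not called, beside 17.1% lower and 23.6% higher over all genes tested; their median log2 fold change was 0.28. Ccr7, which guides dendritic cells to lymph nodes, went from 31.9 ± 9.39 to 19.1 ± 0.951 CPM (log2 fold change -0.74 ± 0.19, adjusted p = 0.0149 by edgeR). Ccr1l1, a close relative of Ccr1, went from 0.767 ± 0.244 to 0.373 ± 0.0462 CPM (log2 fold change -1.03, adjusted p = 0.0444), a call that was lost when any 1 library was left out (adjusted p between 0.0567 and 0.152). With pan-leukocyte scaling 0 of these were called lower and 3 higher. Xcr1, the XCL1 receptor of cross-presenting dendritic cells, was at 1.26, 2.92 and 1.2 CPM in controls and at 10.6, 14.1 and 4.64 CPM in PTEC DN RAR mice. No values overlapped, and Xcr1 was 5.49-fold higher (log2 fold change 2.46 ± 0.47, adjusted p = 0.00415). Clec9a, another gene of these dendritic cells, rose with it, from 10.3 ± 3.48 to 25.6 ± 8.36 CPM (log2 fold change 1.31 ± 0.28, adjusted p = 0.00684), while the dendritic cell genes Flt3 and Zbtb46 differed by -0.07 and 0.16 (adjusted p = 0.822 and 0.558). Clec9a was the 1 of 6 dendritic cell markers called. Itgae, Cd209a and Clec10a differed by 0.22, -0.03 and -0.65 on the log2 scale, and for Clec10a every PTEC DN RAR library was below the controls. Ackr2, a scavenger of inflammatory CC chemokines, had 5, 2 and 0 counts in controls and 26, 16 and 28 counts in PTEC DN RAR mice (adjusted p = 0.00868). It passed the filter on low counts only through the PTEC DN RAR libraries, so its call is no support for a difference. It is known from lymphatic endothelium, and all 7 endothelial markers were higher in the same libraries (summed 73.7 to 109 and 213 to 257 CPM); their part in it was not tested. Ccr9 (log2 difference 0.35), Cxcr1 (-0.44), Cxcr5 (0.22) and Ackr3 (0.66, adjusted p = 0.076) were not called; Ackr3 was called with pan-leukocyte scaling (0.88, adjusted p = 0.04) and with the replicate number as a block (0.67, adjusted p = 0.031).

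**Figure D4:**
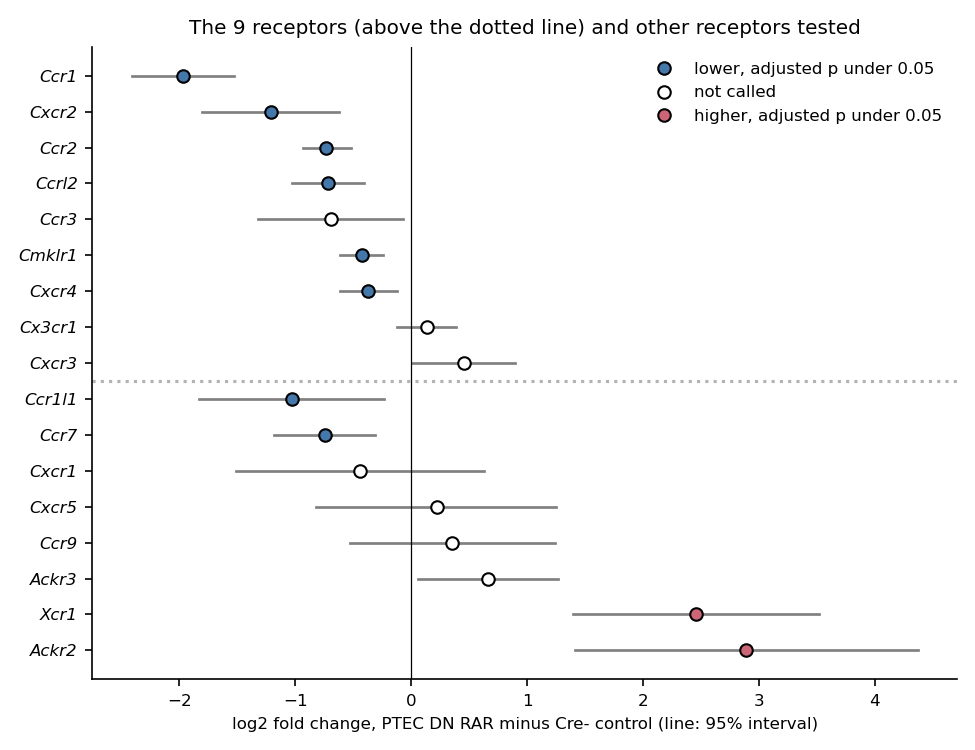
Log2 fold change, PTEC DN RAR minus Cre- control, with 95% confidence intervals from edgeR, for the 9 receptors and for the 8 other chemokine receptors with enough counts. Of the former 6 are called lower and 0 higher, and of the latter 2 are called lower (Ccr7, Ccr1l1) and 2 higher (Xcr1, Ackr2).

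Several of the receptors are neighbours on chromosome 9. From Cxcr6 to Ccr2, 6 of the receptor genes described lie within 307 kb of chromosome 9 (chr9:123806475-124113557). Of these, 3 were lower (Ccr1, Ccr1l1 and Ccr2), 1 was higher (Xcr1), 1 was not called (Ccr3, log2 difference -0.69) and 1 was not tested (Cxcr6). Over all genes tested, 17.1% were lower and 23.6% higher. The Ccr1l1 call was lost when any 1 library was left out. Of the 50-base exon stretches of Ccr2, 1.91% recur in other genes. For Ccr1, Ccr3, Ccrl2, Cxcr3 and Cxcr4 the share was 0.

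Of a list of 22 ligands (chemokines and chemerin), 20 had enough counts, of which 11 were lower, 6 were higher and 3 were not called (17.1% of all genes tested were lower and 23.6% higher), with a median log2 fold change of -1.09; of these, Ccl4 (lower) and Ccl8 (higher) are set beside none of the 9 receptors here. Ligands of Ccr1 and Ccr2 fell with their receptors: all 3 ligands of Ccr2 were lower, and 4 of 5 ligands of Ccr1 were lower. Ccl2, the main attractant of Ccr2+ monocytes, went from 179 ± 20.7 to 45.0 ± 6.76 CPM (log2 fold change -1.99, adjusted p = 0.000145 by edgeR), and Ccl6, a Ccr1 ligand of myeloid cells, from 1337 ± 216 to 380.0 ± 55.6 CPM (log2 fold change -1.82, adjusted p = 0.000201). Cxcl2, the ligand of Cxcr2 with the highest mean CPM, went from 418 ± 45.2 to 138 ± 33.9 CPM (log2 fold change -1.60, adjusted p = 0.000455), and 4 of the 5 Cxcr2 ligands were lower, 1 of them the platelet product Ppbp. Of the 3 platelet markers tested, 2 were lower (Ppbp and Pf4, the latter from 332 ± 65.7 to 38.7 ± 5.91 CPM), while Itga2b, a platelet integrin, was at 1.45 ± 0.764 and 1.48 ± 0.0458 CPM (adjusted p = 0.973 by edgeR). The part of platelets in these values was not tested.

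For each of the other receptors, the ligand with the highest mean CPM over all 6 libraries, PTEC DN RAR included, is given. Ccl5, a ligand of Ccr3 and Ccr1, went from 12.5 ± 2.38 to 25.9 ± 4.11 CPM (log2 fold change 1.05, adjusted p = 0.00239 by edgeR), while the Ccr3 ligand Ccl24, at 13.2, 7.82 and 48.6 CPM in controls, differed by -1.65 on the log2 scale (adjusted p = 0.116). Cx3cl1, the membrane-bound ligand of Cx3cr1, went from 13.6 ± 3.58 to 31.2 ± 0.898 CPM (log2 fold change 1.20, adjusted p = 0.00123). Cxcl12, the ligand of Cxcr4, went from 6.47 ± 1.08 to 18.8 ± 2.09 CPM (log2 fold change 1.54, adjusted p = 0.000354). Cxcl9, a Cxcr3 ligand, went from 74.3 ± 11.1 to 137 ± 36.6 CPM (log2 fold change 0.88, adjusted p = 0.0067), while Cxcl10, at 99.8 ± 24.4 CPM in controls, and Cxcl11 differed by -0.77 and -1.25 on the log2 scale and were not called (adjusted p = 0.0586 and 0.0805). Cx3cl1 and Cxcl12 are products of epithelium, endothelium and stroma, whose markers were also higher in these libraries; their part in the rise was not tested.

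Of 25 genes for signalling and desensitisation of the receptors, 8 were lower, 3 were higher and 14 were not called, with a median log2 fold change of -0.12 (over all genes tested, 17.1% were lower, 23.6% higher and 40.6% called in either direction); with pan-leukocyte scaling 3 were lower and 6 higher. Rgs18 and Rgs2, which speed the shut-off of G proteins, were lower by 1.63 ± 0.14 and 0.63 ± 0.08 on the log2 scale (adjusted p = 0.000201 and 0.000712 by edgeR); Rgs18 is abundant in platelets, and went from 14.8 ± 1.35 to 4.79 ± 0.435 CPM. Adrbk2, the receptor kinase GRK3, went from 77.9 ± 12.4 to 136 ± 18.1 CPM (log2 fold change 0.81 ± 0.14, adjusted p = 0.00278). Arrb1, an arrestin that uncouples receptors from G proteins, went from 256 ± 17.7 to 326 ± 29.9 CPM (log2 fold change 0.35 ± 0.10, adjusted p = 0.0245).

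For the 7 receptors with a mean of at least 10 CPM, the gene with the most similar profile was found among 8991 genes, by the root mean square (RMS) difference of log2 CPM centred on the mean of the 6 libraries. The nearest gene to Ccr1 was Clec4d (RMS difference 0.151), a C-type lectin of myeloid cells with a log2 fold change of -1.92. The nearest to Cxcr2 was Ifitm1 (0.088), an interferon-induced membrane protein with a log2 fold change of -1.23. Ccr2 was nearest to Rabgef1 (0.030), Ccrl2 to Ap1b1 (0.024), Cxcr4 to Pi4k2a (0.028), Cmklr1 to As3mt (0.033) and Cx3cr1 to Clic4 (0.042).

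**Figure D5:**
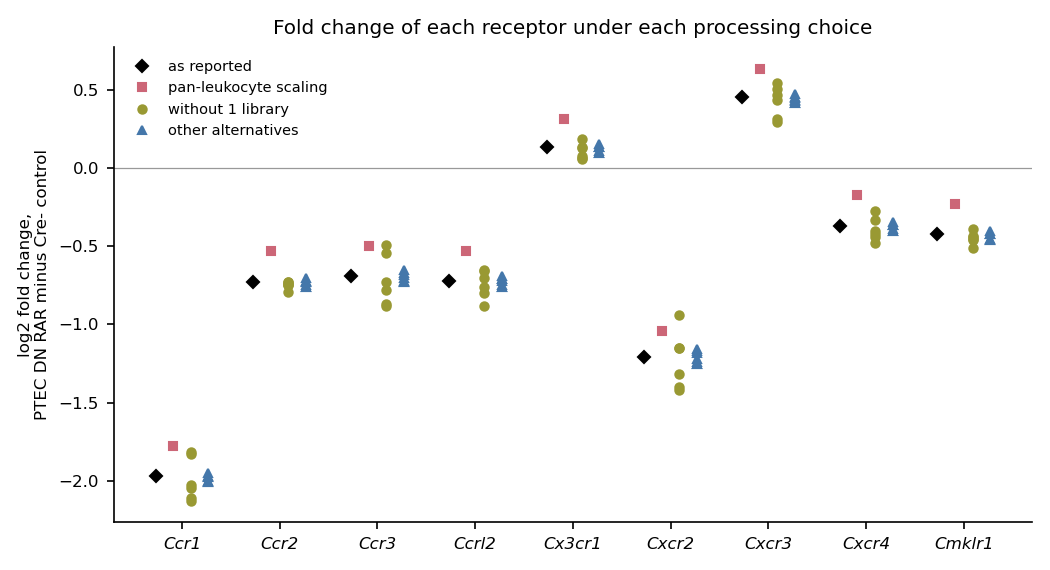
Log2 fold change of each of the 9 receptors, PTEC DN RAR minus Cre- control, as reported and under 14 alternative settings (vertical axis, log2; 1 point a setting). The sign is the same in every setting for each receptor, and Ccr1 ranges from -2.13 to -1.78.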

How the data were processed

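CD11B+ kidney cells of 3 Cre- control and 3 PTEC DN RAR mice were profiled by polyA RNA-Seq. The deposited table holds raw read counts per gene made by the authors; their processing notes name STAR 2.5.0a, HTSeq 0.6.1, edgeR and limma, and the GRCm38 genome. Reads that mapped to several places (42.9 to 47.8% of alignments) were not counted to genes, and lines that name no gene were left out of library sizes. There were 46612 gene lines with 9 repeats, 27 symbols turned into dates were restored, and 0 columns were not used. Genes were kept by filterByExpr, scaled by TMM and tested with edgeR 4.0.16 (R 4.3.3, glmQLFit, glmQLFTest) over 15440 genes with Benjamini-Hochberg adjustment. The procedure was also run on simulated counts in which few genes were changed, up or down, which does not test the choice of scaling. Log2 CPM used a prior count of 2. Exact two-sided permutation tests went through every split of the libraries, with code checked against scipy 1.17.1 on an example. DESeq2 1.42.0, limma 3.58.1 (voom), other scalings and filters, a replicate block and leaving out each library were alternatives. Exon lengths, positions and 50-base stretches came from GENCODE M21, and promoters from RefSeq, where 9 of 9 receptors matched.

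Named were all 9 receptors, the other receptors with enough counts, the ligand of each receptor with the highest mean CPM, the 2 signalling genes with the smallest adjusted p in each direction and 1 gene of nearest profile per receptor; Ppbp, Pf4, Clec9a and other markers were named where they stand beside a result, and Ccl24, Cxcl10 and Cxcl11 after their values were seen. The receptors and gene lists were chosen with earlier results of these data known. Libraries came from separate mice. Counts a library ran from 62 to 120 for Ccr3, from 124 to 318 for Cxcr3 and from 249 to 661 for Cxcr2, which limits their precision. Some genes of the lists are not reported here.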

Additional observations from a re-analysis of the deposited data

How the results depend on the processing

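None of the 6 receptors called lower reversed its direction in the 14 alternatives. With pan-leukocyte scaling 790 genes were lower, 2 of the 9 receptors were higher, 0 of the other receptors were lower, and 3 signalling genes were lower and 6 higher. Of the 24 genes it rests on, 7 were called lower with TMM and their median log2 fold change was -0.15. Of the other receptors, 1 was lower with DESeq2, with limma voom and with no filter, and 1 was higher with a minimum of 10 counts in every library. Without 1 library, 1 of the other receptors was lower whichever library was left out (Ccr7), 5 to 7 signalling genes were lower (5 without Cre- control replicate 3), and 1 to 3 were higher (1 without Cre- control replicate 2 or 3 or PTEC DN RAR replicate 1 or 2). Calls of Cxcr4, Cmklr1, Ccr3, Cx3cr1 and Cxcr3 depended on settings; those of Ccr1, Ccr2, Ccrl2 and Cxcr2 did not in any of the 14. The cause was not tested.

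Replicate numbers showed no clear pairing of the mice. Deviations of same-numbered libraries correlated by -0.01, 0.21 and 0.03, and those of differently numbered libraries by -0.18 to 0.15. With 3 libraries a genotype these values cannot show that the mice were unpaired. With the replicate number as a block, 2606 genes were lower and 3612 higher, 1 of the other receptors was lower and 3 were higher (Ackr3 was added), and the calls of the 9 receptors did not change.

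With 3 mice a genotype the exact tests cannot fall below 0.1. Other limits are the low counts of Ccr3 and Ackr2, the choice of scaling, and the transcripts of kidney parenchyma that moved with genotype.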
